A study of Homo sapiens with 10 samples.

Results

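The genes described here carry out cholesterol synthesis, lysosomal and cytosolic cholesterol transport, and sterol sensing. They were taken as the rows whose symbol is on a list of 27 genes, and all 27 were found once in each gene table, among 60558 genes in all. The libraries come from PC3, a human prostate cancer line established from a bone metastasis, labelled wild type. In 5 libraries the cells had spent 3 days with human bone marrow adipocytes (cocultivated), and in the other 5 they had not (non-cocultivated). Both groups share the line, the kit and the sequencer. Batch numbers 1 to 5 each join 1 library of either group. The labels give no donor of the adipocytes and no statement on separate cultures, so the p-values measure the spread between these libraries, which may be technical.

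Cholesterol is built from acetyl-CoA through mevalonate and isoprenoid intermediates to squalene, which is closed to lanosterol and then trimmed to cholesterol. When membrane sterol falls, SCAP escorts the transcription factor SREBP-2, the product of SREBF2, out of the endoplasmic reticulum, and SREBP-2 switches on most of these enzymes. INSIG1 holds SCAP back when sterol is plentiful, and is itself a target of SREBP-2. Cholesterol taken up in lipoproteins leaves the lysosome through NPC2 and NPC1. Prostate cancer cells are known to use both supply routes.

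SREBP-2 works on promoters together with the factor NF-Y, which binds CCAAT boxes, so the stretch before the start site is shown for 6 of the genes. RefSeq promoter entries (GRCh38.p14) matched 24 of the 27 genes, with 32 entries. Over the 250 bases upstream of the start, the box CCAAT, read on both strands, occurred in 21 of those 32 windows, against 32.0% of all 35116 RefSeq windows of that length. It was found for 19 of the 24 genes, and windows of 1 gene can overlap, so a box may be counted more than once. The box GGGCGG, named after the factor Sp1 and searched in the same way, occurred in 28 of the 32 windows, against 42.6% of all windows. The sterol regulatory element searched, TCACNCCAC on either strand, was present in 1 window, that of SREBF2, and in 0.883% of all windows. Searching for exact letters misses degenerate elements, so an absent match says only that these letters are not in the window. Capitals mark the CCAAT box in either orientation and, in SREBF2, also the sterol element. Each sequence runs from the far end to the base before the start site.
MSMO1, chr4:165327419-165327668, + strand: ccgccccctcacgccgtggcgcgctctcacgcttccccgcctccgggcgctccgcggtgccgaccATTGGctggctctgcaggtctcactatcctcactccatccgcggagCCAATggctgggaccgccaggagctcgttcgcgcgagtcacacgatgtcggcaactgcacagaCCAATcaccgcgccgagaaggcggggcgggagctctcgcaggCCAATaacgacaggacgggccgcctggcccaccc
NSDHL, chrX:152830813-152831062, + strand: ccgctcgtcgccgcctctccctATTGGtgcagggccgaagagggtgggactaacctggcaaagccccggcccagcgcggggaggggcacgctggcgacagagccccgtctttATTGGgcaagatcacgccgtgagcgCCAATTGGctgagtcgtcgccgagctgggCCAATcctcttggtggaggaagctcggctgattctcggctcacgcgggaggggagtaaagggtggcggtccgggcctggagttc
TMEM97, chr17:28318950-28319199, + strand: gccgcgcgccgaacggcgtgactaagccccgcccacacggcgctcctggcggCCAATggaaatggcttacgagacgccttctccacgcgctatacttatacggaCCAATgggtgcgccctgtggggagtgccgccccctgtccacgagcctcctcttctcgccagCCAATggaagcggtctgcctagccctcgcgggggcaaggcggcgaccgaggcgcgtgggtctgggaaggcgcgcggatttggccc
INSIG1, chr7:155297628-155297877, + strand: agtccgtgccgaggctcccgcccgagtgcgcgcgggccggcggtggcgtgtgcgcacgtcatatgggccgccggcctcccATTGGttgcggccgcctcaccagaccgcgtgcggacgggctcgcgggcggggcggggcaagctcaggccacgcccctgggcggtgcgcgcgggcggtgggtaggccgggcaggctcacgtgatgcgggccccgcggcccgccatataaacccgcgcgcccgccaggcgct
SREBF2, chr22:41832855-41833104, + strand: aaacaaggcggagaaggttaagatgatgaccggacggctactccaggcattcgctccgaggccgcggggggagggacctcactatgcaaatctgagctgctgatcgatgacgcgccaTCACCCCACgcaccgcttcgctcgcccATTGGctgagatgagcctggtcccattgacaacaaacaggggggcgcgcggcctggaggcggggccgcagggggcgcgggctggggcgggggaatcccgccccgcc
NPC1, chr18:23586507-23586756, - strand: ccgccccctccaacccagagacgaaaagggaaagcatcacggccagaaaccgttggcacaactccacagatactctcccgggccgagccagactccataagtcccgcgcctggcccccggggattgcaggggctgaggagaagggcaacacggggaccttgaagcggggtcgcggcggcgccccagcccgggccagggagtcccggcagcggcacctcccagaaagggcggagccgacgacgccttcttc
NSDHL holds 5 CCAAT boxes, of which 1 pair overlaps, MSMO1 4 and TMEM97 3, whereas INSIG1 and SREBF2 hold 1 each and NPC1 none. Among genes not shown, MVK also holds 5, and EBP, FDPS and MVD 3 each. IDI1 holds up to 3 in a window, DHCR7, HMGCS1, NPC2 and STARD4 up to 2, and CYP51A1 none. In the results below, MVK, EBP, FDPS, IDI1, HMGCS1 and STARD4 were not called without a batch term or with the batch as a block. CYP51A1 was called with the block. Box number was not tested against the changes.

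Library depth lay between 39074949 and 51515712 expected counts. Epithelial markers summed to 970 to 1040 CPM (counts scaled to the library total) without and 666.5 to 772 CPM with coculture. All 5 were called lower in the fit without a batch term described below. The androgen-dependent prostate genes KLK3, KLK2 and TMPRSS2 did not exceed 3 counts in any library. Of 7 adipocyte markers 5 were tested, and 2 were called higher and 1 lower, against 17.9% and 15.8% of all genes tested. The 7 summed to 52.2 to 77.9 CPM without and 157 to 285.5 CPM with coculture. FABP4 averaged 27.6 and 145 CPM and PLIN4 23.1 and 48.0 CPM, while ADIPOQ and LPL stayed at or under 3 counts everywhere. CIDEC averaged 4.24 and 2.23 CPM, CFD 4.20 and 4.00 CPM, and PLIN1 0.28 and 0.23 CPM. Stromal markers summed to 9.66 to 11.3 CPM without and 3.53 to 5.33 CPM with coculture, and of the 5 tested 4 were called lower. Haematopoietic markers, mostly CD68, summed to 33.0 to 39.5 and 42.7 to 50.2 CPM, and endothelial ones to 30.9 to 42.7 and 17.2 to 24.6 CPM. Of the 2 haematopoietic markers tested 1 was called higher and 1 lower, and of the 2 endothelial ones 1 was called lower. Within the haematopoietic list CD68 averaged 33.0 and 44.8 CPM and LYZ 2.23 and 0.562 CPM. PTPRC, MPO, HBB and HBA1 stayed at or under 3 counts everywhere. Within the endothelial list KDR averaged 24.6 and 10.2 CPM, PECAM1 10.4 and 10.9 CPM, and the other 3 genes stayed under 0.2 CPM. In bulk RNA, fewer cells of a type and less RNA per cell cannot be told apart, and the part of these shifts in the results below was not tested.

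Per transcript length, the genes covered a wide range in the non-cocultivated libraries. The farnesyl diphosphate synthase FDPS stood highest at 244 ± 29.8 TPM (transcript abundance corrected for length, mean ± SD, n = 5), followed by NPC2 at 205 ± 19.0 TPM. The sterol isomerase EBP lay at 126 ± 6.37 TPM and the squalene synthase FDFT1 at 109.7 ± 26.6 TPM. At the other end were the sterol reductase TM7SF2 with 2.77 ± 0.787 TPM and the sterol carrier STARD4 with 13.4 ± 4.15 TPM. The next above it, GGPS1, which makes geranylgeranyl diphosphate, does not differ from STARD4 beyond their spread.

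With coculture, the lowest adjusted p-values of the 27 genes were those of a pair of transport genes: the lysosomal cholesterol exporter NPC1 rose 1.48-fold and its binding partner TMEM97 fell to 0.781 of its level. Of the synthesis enzymes, MSMO1 and NSDHL, which act in turn to strip methyl groups from the sterol ring, rose 1.38-fold and 1.20-fold. In all, 3 of the 27 genes were higher and 1 lower at an adjusted p under 0.05 (edgeR quasi-likelihood F test, QL, Benjamini-Hochberg over 15690 genes). Over all genes tested, 33.6% were called, 17.9% as higher and 15.8% as lower; the share of the 27 genes called is below that background. The median log2 fold change of the 27 was 0.04, against -0.01 over all genes, and 15 of them were positive. All 27 passed the filter on low counts, with at least 63 expected counts in every library.

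The batch numbers pair the libraries, and a fit with the batch as a block called 6 higher and 3 lower. The same fit called 44.4% of all genes, 22.2% in each direction. NPC2, CYP51A1 and MVD joined the higher genes, and INSIG1 and DHCR7 the lower ones. Scaling by library totals in place of TMM gave 3 higher and 2 lower, with 14.1% of all genes called as higher and 22.7% as lower, and relative log expression (RLE) size factors gave 3 and 1.

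**Figure D1:**
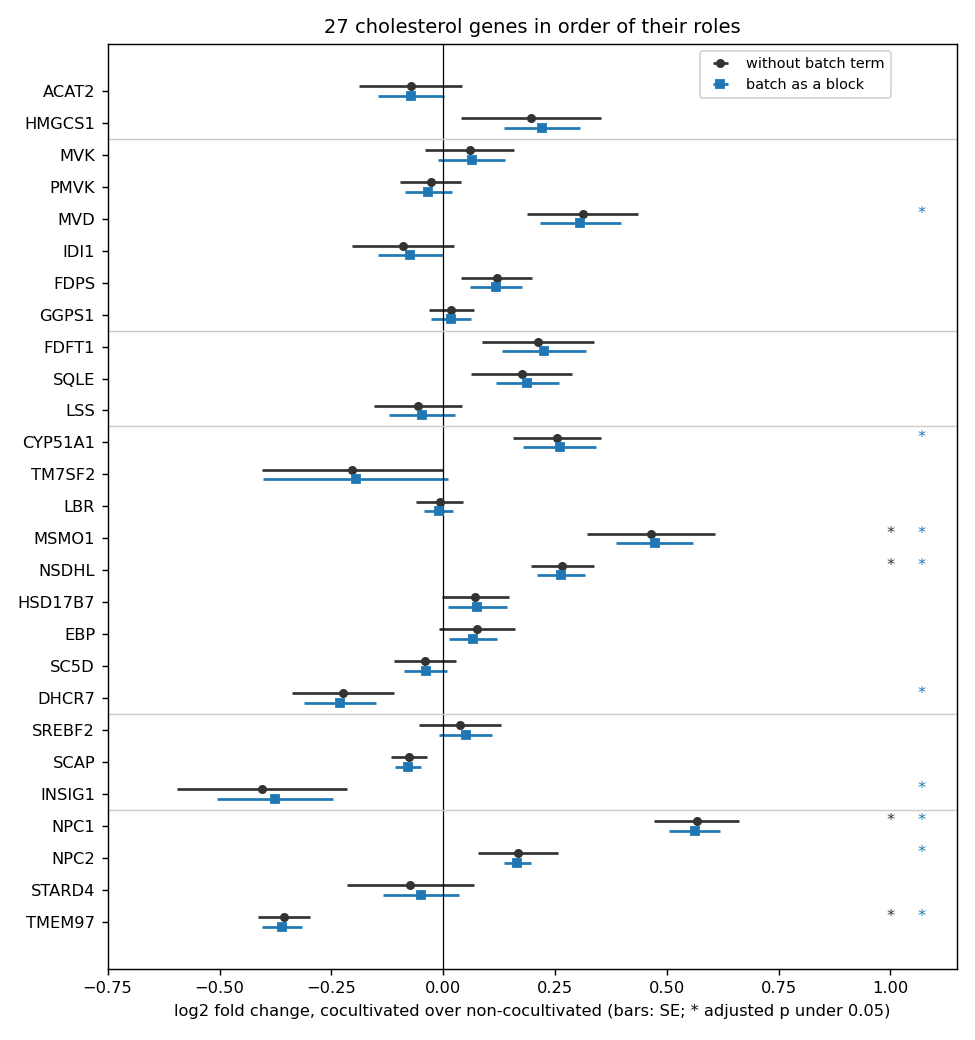
Log2 fold change (x axis, cocultivated over non-cocultivated) of each of the 27 genes (y axis, in order of role), with SE bars, from the edgeR QL fit without a batch term (circles) and with the batch as a block (squares). Stars mark an adjusted p under 0.05: 3 higher and 1 lower without the batch term, 6 higher and 3 lower with it.

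NPC1, the lysosomal membrane protein that hands cholesterol out of the organelle, measured 91.4, 71.8, 74.0, 73.7 and 85.0 CPM in non-cocultivated libraries 1 to 5 (CPM on TMM-scaled library sizes, as for all single genes from here). In cocultivated libraries 1 to 5 it reached 114.6, 110.4, 113, 102 and 146.5 CPM. Every cocultivated library thus exceeded every non-cocultivated one. The log2 fold change was 0.57 ± 0.09 (SE, n = 5 and 5), with an edgeR QL adjusted p of 0.000483, and within batches the differences ran from 0.33 to 0.79. NPC1 kept its call under every alternative fit run, with an edgeR QL adjusted p of at most 0.00439 when libraries were left out. Its transcript shares 604 exonic bases, 5.98% of its own, with RMC1 on the opposite strand in GENCODE v29. RMC1 averaged 23.9 CPM over the 10 libraries and had a log2 fold change of 0.17 (edgeR QL adjusted p 0.0157). How the counting treated strand is not stated in the labels or headers, and the part of such overlaps in the results was not tested.

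NPC2, the soluble carrier that passes cholesterol to NPC1 inside the lysosome, lay at 85.5, 94.9, 94.8, 97.5 and 114.7 CPM without coculture. With coculture it lay at 91.9, 114 (batch 2), 105 (batch 3), 108 (batch 4) and 129 CPM. The groups overlap, but within each batch the cocultivated library was the higher one. Its log2 fold change of 0.17 ± 0.09 did not pass (edgeR QL adjusted p 0.171), whereas with the batch as a block it was 0.17 ± 0.03 with an adjusted p of 0.00173.

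TMEM97, a membrane protein of the endoplasmic reticulum that binds NPC1 and is also known as the sigma-2 receptor, gave 60.6, 60.4, 60.6, 61.0 and 63.2 CPM without coculture. The cocultivated libraries held 41.9, 49.2, 45, 48.8 and 53.9 CPM. The groups do not overlap, and the non-cocultivated values span less than 3 CPM. TMEM97 fell by 0.36 ± 0.06 on the log2 scale (edgeR QL adjusted p 0.000400), with within-batch differences of -0.53 to -0.23. No alternative fit run removed the call, and leaving out libraries gave an edgeR QL adjusted p of at most 0.00408. TMEM97 shares 361 exonic bases with IFT20 on the opposite strand in GENCODE v29, and IFT20 moved the other way (log2 fold change 0.21, edgeR QL adjusted p 0.0160).

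NPC1 and TMEM97 were also the only members whose groups do not overlap. Over all genes tested, 25.4% had groups that do not overlap, 13.7% with coculture above and 11.7% below. Consistency over the 5 batches was found in 5 members: NPC1, NPC2 and MSMO1 were higher in every batch, and TMEM97 and SCAP lower. Among all genes tested, 48.6% kept 1 direction in all 5 batches, 23.9% higher and 24.7% lower.

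STARD4, a cytosolic protein that ferries sterol between membranes, had 44.7, 30.8, 25.1, 25.7 and 28.1 CPM without coculture and 32.9, 27.5, 26.6, 26.9 and 33.1 CPM with it. Non-cocultivated library 1 stood above the other 9 libraries, and the rest overlap. Its log2 fold change was -0.07 ± 0.14 (edgeR QL adjusted p 0.735).

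**Figure D2:**
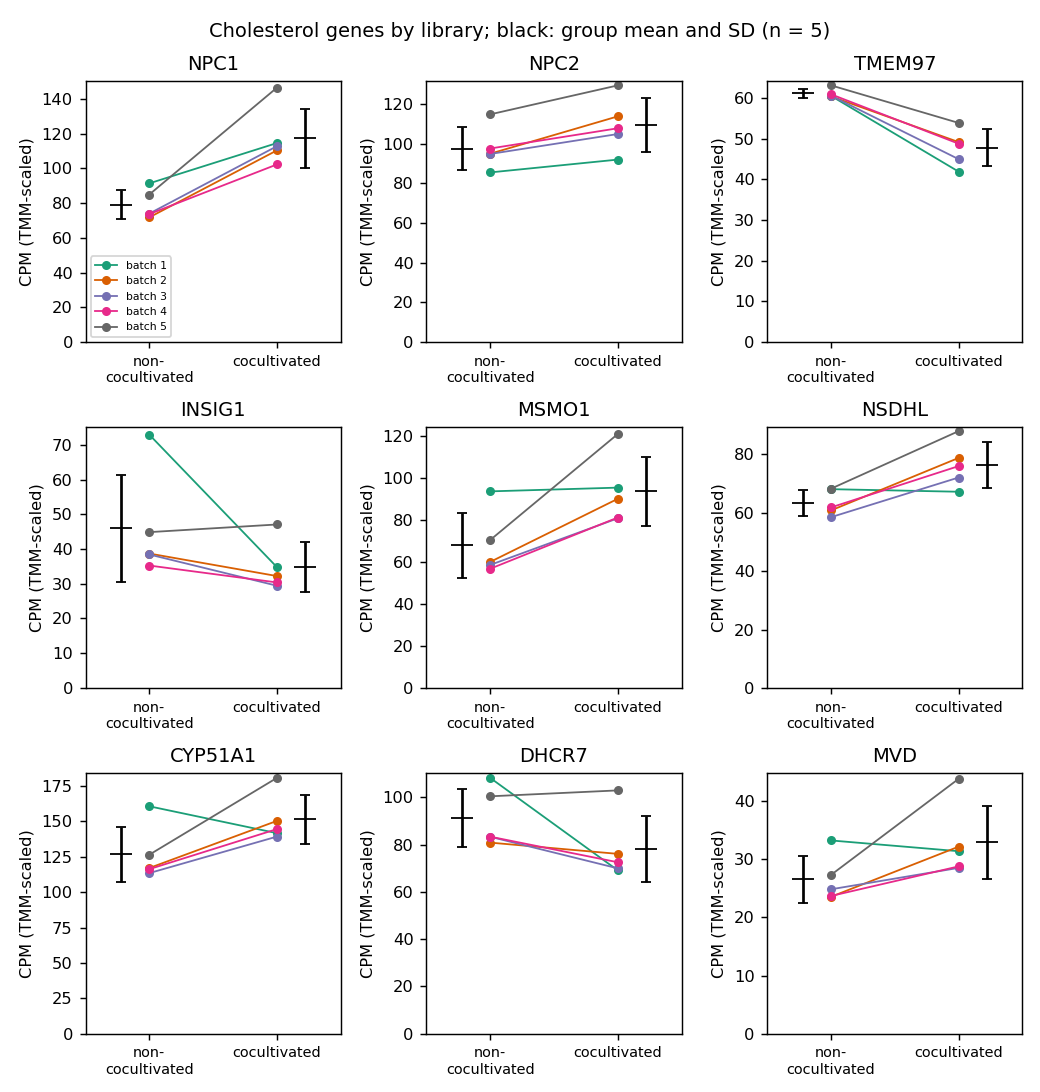
CPM on TMM-scaled library sizes (y axis) of the 9 genes called without a batch term or with the batch as a block. Each line joins the non-cocultivated and the cocultivated library of a batch, and black bars are the group mean with SD (n = 5). NPC1 rises and TMEM97 falls in all 5 batches, while INSIG1 and DHCR7 fall in batches 1 to 4 and not in batch 5.

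Among the sensors, SREBF2, the gene of SREBP-2, read 185 CPM in non-cocultivated library 1 and 129, 131.5, 128 and 139.5 CPM in the other 4. Cocultivated libraries gave 153, 144, 141, 137 and 157.5 CPM. Non-cocultivated library 1 was the highest of all 10, cocultivated library 4 lay below non-cocultivated library 5, and the groups overlap. SREBF2 had a log2 fold change of 0.04 ± 0.09 (edgeR QL adjusted p 0.791). Without non-cocultivated library 1 it was 0.15 ± 0.05 (adjusted p 0.0338), and without batch 1 0.13 ± 0.05 (adjusted p 0.0498), both in edgeR QL. Without cocultivated library 5, SREBF2 was 0.018 (edgeR QL adjusted p 0.911).

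SCAP, the escort of SREBP-2, showed 77.8, 81.1, 82.5, 84.1 and 81.0 CPM without coculture. It showed 73.4, 80.6, 76.3, 81.0 and 74.0 CPM with it. The cocultivated library was the lower one in each batch, yet the groups overlap. The log2 fold change of -0.08 ± 0.04 did not pass in either fit (edgeR QL adjusted p 0.165, and 0.0533 with the batch as a block). Scaling by library totals turned SCAP into a call (-0.13, edgeR QL adjusted p 0.0147), as did limma on TPM (-0.14, adjusted p 0.0477). These 2 settings also lowered all genes, with median log2 fold changes of -0.063 and -0.066 against -0.009 in the fit without a batch term.

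INSIG1, which retains SCAP in the endoplasmic reticulum, was at 72.9 CPM in non-cocultivated library 1 and at 38.7, 38.4, 35.2 and 44.9 CPM in the other 4. The cocultivated libraries had 34.8, 32.2, 29.4, 30.4 and 47.1 CPM. Batch 1 carried the widest gap, -1.07 on the log2 scale, and batch 5 alone was positive, at 0.07. INSIG1 had the lowest log2 fold change of the 27 genes, -0.41 ± 0.19, without passing (edgeR QL adjusted p 0.122). With the batch as a block it fell by 0.38 ± 0.13 (edgeR QL adjusted p 0.0399). Leaving out libraries moved its log2 fold change between -0.54 and -0.18.

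At the entry to the pathway, HMGCS1, which makes the precursor of mevalonate, gave 176, 108, 96.6, 96.9 and 114 CPM without coculture. With it the values were 151, 124, 119, 119 and 165 CPM. In batches 2 to 5 the cocultivated library was higher, and in batch 1 lower. The log2 fold change of 0.20 ± 0.16 did not pass (edgeR QL adjusted p 0.374, and 0.0607 with the batch as a block). Leaving out non-cocultivated library 1 made HMGCS1 a call at 0.38 ± 0.10 (edgeR QL adjusted p 0.0101), as did leaving out batch 1 (0.34, adjusted p 0.0219). Without cocultivated library 5, HMGCS1 was 0.125 (edgeR QL adjusted p 0.607). ACAT2, the cytosolic thiolase of the first step, had a log2 fold change of -0.07 ± 0.11. It overlaps TCP1, which averaged 518.5 CPM, on the opposite strand over 397 exonic bases. On that strand it also shares 1141 exonic bases with SOD2 and 1458 with SOD2-OT1 in GENCODE v29, so the counts of ACAT2 are uncertain.

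From mevalonate to the isoprenoids, 1 of 6 genes, MVD, passed with the batch as a block, and it did not pass without the batch term. With the batch as a block, 22.2% of all genes were called as higher and 22.2% as lower. MVD, the decarboxylase that yields isopentenyl diphosphate, lay at 33.2, 23.5, 24.8, 23.7 and 27.3 CPM without coculture. It lay at 31.4, 32.2, 28.5, 28.8 and 43.8 CPM with it. Non-cocultivated library 1 exceeded 4 of the 5 cocultivated libraries, and the other 4 non-cocultivated libraries were below all cocultivated ones. MVD had a log2 fold change of 0.31 ± 0.12 (edgeR QL adjusted p 0.0723), and 0.31 ± 0.09 with the batch as a block (adjusted p 0.0204). It also passed without non-cocultivated library 1 (0.41, edgeR QL adjusted p 0.0149). Without cocultivated library 5, MVD was 0.194 (edgeR QL adjusted p 0.15). The kinases MVK and PMVK, the isomerase IDI1, FDPS and GGPS1 had log2 fold changes between -0.09 and 0.12, and none passed in either fit. GGPS1 shares 1422 exonic bases, 37.3% of its own, with TBCE on the same strand in GENCODE v29. GGPS1 averaged 18.0 CPM and TBCE 2.60 CPM over the 10 libraries (counts scaled to the library total), so the counts of GGPS1 are uncertain.

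The 3 enzymes from squalene to lanosterol did not pass in either fit. SQLE, the epoxidase that commits squalene to sterols, gave 183, 126, 122, 117 and 132.5 CPM without coculture. With coculture it gave 162, 146, 141, 141 and 179 CPM. Non-cocultivated library 1 was the highest of all 10 libraries, and the other 4 non-cocultivated libraries lay below every cocultivated one. Its log2 fold change was 0.18 ± 0.11 (edgeR QL adjusted p 0.259, and 0.0524 with the batch as a block). FDFT1 had 0.21 ± 0.12 and the cyclase LSS -0.06 ± 0.10. Without non-cocultivated library 1, SQLE was 0.30 ± 0.07 (edgeR QL adjusted p 0.00508) and FDFT1 0.34 ± 0.09 (adjusted p 0.0081), and both were then called. Without cocultivated library 5, SQLE was 0.125 (edgeR QL adjusted p 0.452) and FDFT1 0.137 (adjusted p 0.428).

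Of the 9 enzymes from lanosterol to cholesterol, 2 rose without the batch term, and 3 rose and 1 fell with it. Over all genes, 17.9% rose and 15.8% fell without the batch term, and 22.2% rose and 22.2% fell with it. CYP51A1, the demethylase that acts first on lanosterol, was at 161, 117, 113.5, 116 and 126.5 CPM without coculture. It was at 142, 150.4, 139, 145 and 181 CPM with it. Except for non-cocultivated library 1, the groups do not overlap. The log2 fold change of 0.25 ± 0.10 did not pass (edgeR QL adjusted p 0.0634), whereas with the batch as a block it was 0.26 ± 0.08 (adjusted p 0.0261). Leaving out non-cocultivated library 1 gave 0.35 (edgeR QL adjusted p 0.00211), and leaving out cocultivated library 5 gave 0.19 (adjusted p 0.132). CYP51A1 shares 2844 exonic bases, 79% of its own, with AC000120.2 on the same strand in GENCODE v29. AC000120.2 averaged 0.031 CPM (counts scaled to the library total), and how reads were divided between the 2 genes was not tested.

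MSMO1, the methylsterol oxidase, gave 93.7, 60.04, 58.6, 56.8 and 70.5 CPM without coculture. Cocultivated libraries gave 95.5, 90.1, 80.8, 81.2 and 121 CPM. Apart from non-cocultivated library 1, every non-cocultivated value was lower than every cocultivated one, and batch 1 itself differed by 0.03 on the log2 scale. MSMO1 rose by 0.46 ± 0.14 on the log2 scale (edgeR QL adjusted p 0.0239), and 0.47 ± 0.09 with the batch as a block (adjusted p 0.00165). The call of MSMO1 was lost when non-cocultivated library 2, 3 or 4 or cocultivated library 5 was left out, or batch 2, 3, 4 or 5, with edgeR QL adjusted p of up to 0.0935. It was also lost with limma on TPM (adjusted p 0.0655).

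NSDHL, the dehydrogenase that follows MSMO1, measured 68.1, 60.8, 58.5, 61.8 and 68.2 CPM without coculture. With coculture it measured 67.2, 78.8, 72.0, 76.0 and 87.9 CPM. Cocultivated library 1 lay below non-cocultivated libraries 1 and 5, and the other 4 cocultivated libraries exceeded every non-cocultivated one. Batch 1 differed by -0.02 on the log2 scale. NSDHL rose by 0.27 ± 0.07 (edgeR QL adjusted p 0.00981), and was not called without batch 2 (adjusted p 0.0645). HSD17B7, the reductase that completes this demethylation, had a log2 fold change of 0.07 ± 0.08 and did not pass. Its pseudogene HSD17B7P2 took 3.49% to 5.83% of the reads assigned to the pair, so a small part of its count is uncertain.

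DHCR7, the reductase that makes cholesterol in the last step of one branch, was at 108, 80.8, 83.3, 83.3 and 100.4 CPM without coculture. It was at 69.1, 76.1, 69.9, 72.5 and 103 CPM with it. In batches 1 to 4 the cocultivated library was lower, and in batch 5 it was higher by 0.04 on the log2 scale. The log2 fold change of -0.22 ± 0.11 did not pass (edgeR QL adjusted p 0.156), whereas with the batch as a block it was -0.23 ± 0.08 (adjusted p 0.0413). Leaving out cocultivated library 5 also made DHCR7 a call (-0.34, edgeR QL adjusted p 0.00898). Without non-cocultivated library 1, DHCR7 was -0.158 (edgeR QL adjusted p 0.303).

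TM7SF2 and LBR reduce the same double bond of the sterol ring, and LBR also tethers chromatin to the nuclear envelope. They had log2 fold changes of -0.20 ± 0.20 and -0.01 ± 0.05. TM7SF2 was the scarcest gene, at 1.40 to 3.24 CPM over the 10 libraries, and its within-batch differences ran from -1.18 to 0.40. EBP and the desaturase SC5D had 0.08 ± 0.08 and -0.04 ± 0.07, and none of these 4 passed in either fit.

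Most of the 27 genes moved together from library to library within a group. As the deviation of log2 CPM from the group mean, their median was 0.33 in non-cocultivated library 1 and 0.26 in cocultivated library 5, and between -0.12 and 0.05 in the other 8. Non-cocultivated library 1 was the highest of its group for 20 of the 27 genes, against 28.2% of all genes tested. Cocultivated library 5 was the highest of its group for 25 of them, against 32.1% of all genes. LBR and SCAP were not among those 25: LBR was lowest in both libraries of batch 5, and SCAP was lowest in non-cocultivated library 1. Over all genes tested, the median deviation of every library was within 0.02 of 0. Non-cocultivated library 1 was the deepest of all, at 51515712 counts, with 2.25% mitochondrial counts. Cocultivated library 5 had 3.23% mitochondrial counts, 6.13% of counts in its 10 most abundant genes and the highest adipocyte marker sum, 285.5 CPM, and their part in its sterol gene levels was not tested.

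**Figure D3:**
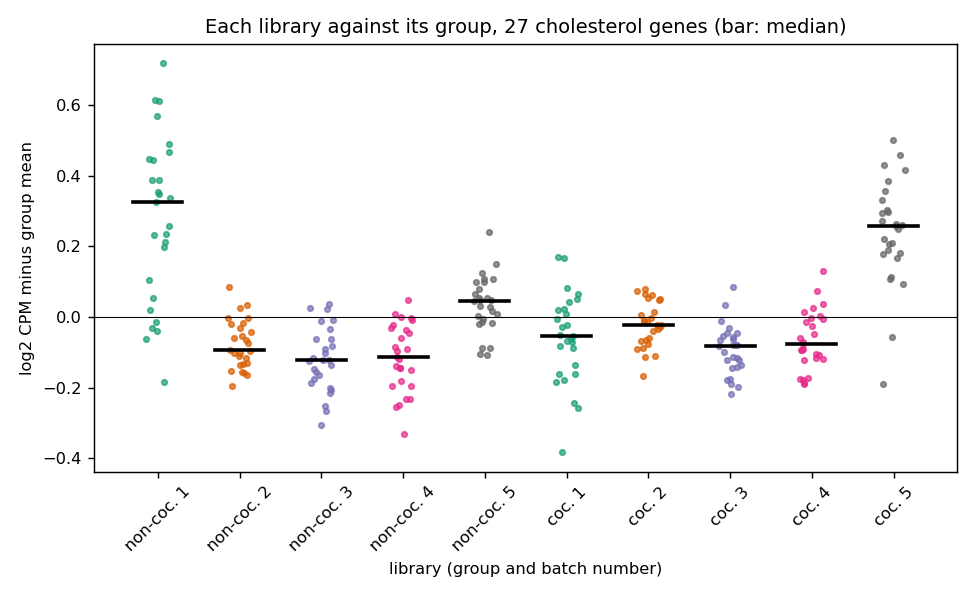
Log2 CPM minus the group mean (y axis) of the 27 genes (points) in each of the 10 libraries (x axis, non-coc. and coc. with the batch number), with the median as a bar. The medians of non-cocultivated library 1 (0.33) and cocultivated library 5 (0.26) stand above those of the other 8 libraries, which lie between -0.12 and 0.05.

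These libraries set the within-batch differences apart. Cocultivated minus non-cocultivated, 3 of the 27 genes were higher in batch 1, 18 in batch 2, 19 in batch 3, 20 in batch 4 and 24 in batch 5. The share of all genes tested that were higher ran from 47.4% in batch 1 to 50.5% in batch 5. The median difference was -0.21 in batch 1, 0.08, 0.09 and 0.07 in batches 2, 3 and 4, and 0.22 in batch 5 (log2 CPM). Over all genes tested the 5 medians lay between -0.01 and 0.00. For 25 of the 27 genes the lowest of the 5 differences was that of batch 1, which holds for 23.2% of all genes. LBR and SCAP were the exceptions, with their lowest difference in batch 5. For 21 the highest was that of batch 5, against 24.7% of all genes. A group of 11 genes was lower in batch 1 and higher in each of the other 4 batches: HMGCS1, MVK, MVD, FDPS, GGPS1, FDFT1, SQLE, CYP51A1, NSDHL, HSD17B7 and SREBF2. The share of all genes with this pattern was not counted.

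**Figure D4:**
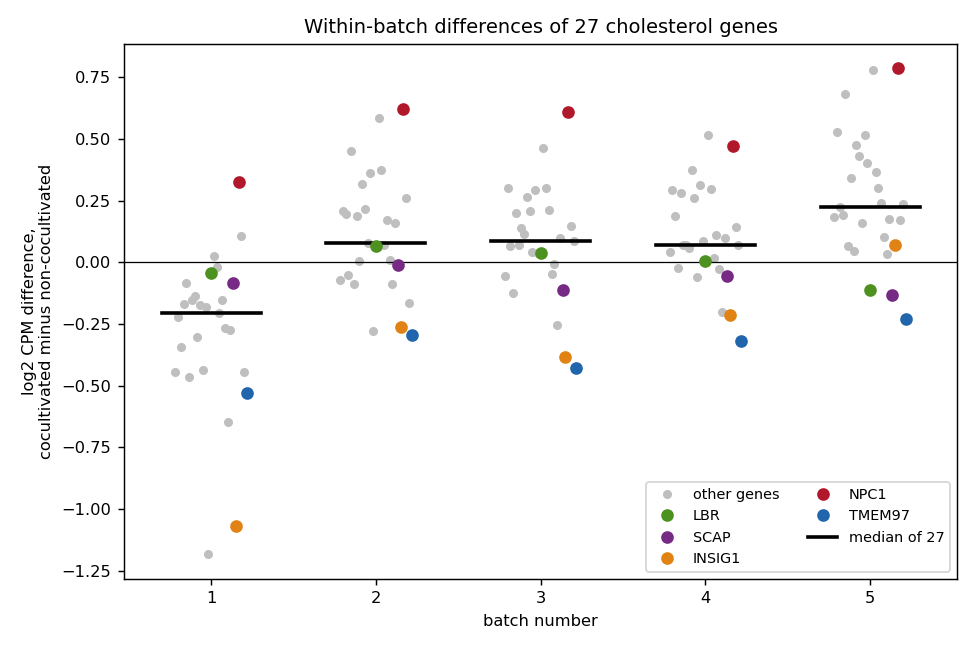
Within-batch difference in log2 CPM (y axis, cocultivated minus non-cocultivated) of the 27 genes (points) for each batch number (x axis), with the median as a bar. The medians are -0.21 in batch 1, between 0.07 and 0.09 in batches 2 to 4 and 0.22 in batch 5, while NPC1 stays above and TMEM97 below 0 throughout.

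Because batches 1 and 5 stood apart, the fit was also run on batches 2, 3 and 4 alone, a choice made after these values had been seen. The batches were dropped for the deviations of these same 27 genes. Their spread was thus narrowed by selection, and that of all genes was not. The counts and p-values from this fit are description only, and the shares over all genes are not a like comparison. In batches 2, 3 and 4 alone, 12 of the 27 genes were higher and 3 lower (edgeR QL, n = 3 and 3). Over all genes 39.0% were called, 20.4% higher and 18.6% lower. The higher genes were NPC1, NPC2, MSMO1, NSDHL, CYP51A1, FDFT1, MVD, HMGCS1, SQLE, MVK, FDPS and SREBF2. Their log2 fold changes ran from 0.12 for SREBF2 to 0.57 for NPC1, with FDFT1 at 0.32 ± 0.05 (edgeR QL adjusted p 0.000331) and HMGCS1 at 0.27 ± 0.05 (adjusted p 0.000812). The lower genes were TMEM97, INSIG1 (-0.29 ± 0.05, edgeR QL adjusted p 0.00118) and DHCR7 (-0.18 ± 0.04, adjusted p 0.00321). Leaving out non-cocultivated library 1 alone gave 9 higher and 1 lower, with 17.3% of all genes called as higher and 15.2% as lower. Leaving out cocultivated library 5 gave 2 higher and 3 lower, the lower ones being TMEM97, INSIG1 and DHCR7, against 17.5% and 14.2% of all genes. Without batch 2, 1 gene was higher and 1 lower, and calls over all genes were also fewer, at 13.4% and 10.8%.

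Other genes around the pathway, a selection of 39 that is not a complete list, were tested in the fit of all 10 libraries without a batch term. Of these, 15 were higher and 4 lower, against 17.9% and 15.8% of all genes. The selection was made with earlier results of these data known, so its counts may reflect that choice. Library totals in place of TMM gave 9 higher and 8 lower, against 14.1% and 22.7% of all genes. The smaller lists that follow are read against the 17.9% higher and 15.8% lower of the fit without a batch term, and no list was tested as a set. Of 13 genes for sterol transport and lipoprotein uptake, 9 rose and 2 fell. GRAMD1B and GRAMD1A, which carry cholesterol from the plasma membrane to the endoplasmic reticulum, rose by 0.48 ± 0.07 (edgeR QL adjusted p 0.000169) and 0.34 ± 0.05 (adjusted p 0.000124). GRAMD1C, of the same family and named after its value was seen, fell by 0.74 ± 0.18 (edgeR QL adjusted p 0.00583) from a low level of 1.67 ± 0.399 CPM (SD, n = 5). Among 10 genes for SREBP processing and sterol-regulated degradation 1 rose and 1 fell. With the batch as a block 4 rose and 3 fell, against 22.2% of all genes in each direction. INSIG2, the paralog of INSIG1, rose by 0.20 ± 0.06 (edgeR QL adjusted p 0.0152) and the ubiquitin-conjugating enzyme UBE2G2 fell by 0.12 ± 0.03 (adjusted p 0.0190). Isoprenoid side branches had 3 of 11 higher (edgeR QL), among them the dolichol-forming DHDDS at 0.25 ± 0.05 and RABGGTB, a prenyltransferase subunit, at 0.16 ± 0.04. Of 5 electron donors and scaffold proteins of the sterol enzymes, 2 were higher and 1 lower. POR, the reductase that feeds electrons to CYP51A1 and SQLE, averaged 69.3 ± 4.52 CPM without and 136 ± 20.7 CPM with coculture (SD, n = 5 each). Its groups do not overlap, and POR rose by 0.97 ± 0.09 on the log2 scale, with an adjusted p of 2.94e-06 in edgeR QL. The electron carrier CYB5A fell by 0.22 ± 0.05 (edgeR QL adjusted p 0.00291).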

How the data were processed

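RNA of 10 PC3 libraries, 5 per group, was sequenced as stranded mRNA libraries. Per the submitters' processing notes, bcl2fastq, Bowtie2 2.4.4 and RSEM 1.3.3 were used, while genome build, annotation and strand handling were not stated. The deposited expected counts are, per the file headers, reads assigned to each gene by RSEM, with shared reads divided by likelihood, which can split reads between copies or overlapping genes. TPM, also deposited and named so per the file headers, divides by effective length and brings every library to 1 common sum.

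Expected counts were rounded to whole numbers (83.8% were whole within 0.005). Genes passing filterByExpr (minimum count 10, minimum total 15) were scaled by TMM and tested with edgeR 4.0.16 (quasi-likelihood F test, default settings) in R 4.3.3, with Benjamini-Hochberg adjustment over all 15690 genes and a threshold of 0.05. Each SE was obtained from the fold change and its F statistic. Per-library deviations and within-batch differences use log2 CPM with a prior count of 2. Alternatives were the batch as a block, other scalings, DESeq2 1.42.0, limma 3.58.1 on log2(TPM + 0.5), no filter, and leaving out libraries. A count of 0 allows up to 3 counts, 0.0582 to 0.0768 CPM by library, which covers counting error only.

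The batch number is a shared batch per the labels. Across genes, the correlation of deviations from the group means within a batch was 0.329, -0.019, 0.0734, 0.104 and 0.281 for batches 1 to 5. Values by library are given for each gene called without or with the batch as a block, for 6 genes picked by role, and for the genes with the highest and lowest log2 fold change. Around the pathway, at most the 2 genes with the smallest p of each list were named, and GRAMD1C besides, after its value was seen. The genes and lists were chosen with earlier results of these data known.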

Additional observations from a re-analysis of the deposited data

Results flagged for a closer look

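In 17 of 54 sets of 5 libraries (27 genes in both groups) the highest or lowest library was set far apart from the other 4, where chance flags about 1 in 20 sets. The genes share libraries, so these are not separate events. Non-cocultivated library 1 was high for HMGCS1 (175.8 CPM), SQLE (183 CPM), LSS (64.0 CPM), CYP51A1 (160.7 CPM), TM7SF2 (3.24 CPM), SREBF2 (184.9 CPM) and INSIG1 (72.9 CPM). Cocultivated library 5 was high for ACAT2 (64.2 CPM), MVK (50.1 CPM), MVD (43.8 CPM), FDPS (210.2 CPM), CYP51A1 (180.8 CPM), DHCR7 (102.9 CPM) and NPC1 (146.5 CPM). It was low for LBR (59.99 CPM). Non-cocultivated library 5 was high for EBP (87.1 CPM) and TMEM97 (63.2 CPM).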

How the results depend on the processing

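With the batch as a replicate block, 6 of the 27 genes were higher and 3 lower, against 3 and 1 without it. DESeq2 gave 5 higher and 1 lower, no filter 5 and 1, limma on TPM 2 and 3, library totals 3 and 2, and batches 2, 3 and 4 alone, an alternative added after seeing the data, 12 and 3. Leaving out a library or a batch gave 1 to 9 higher and 1 to 3 lower. Of the 39 other genes, 9 were higher and 8 lower with library totals, 8 higher and 5 lower with limma on TPM, and 8 to 16 higher and 3 to 5 lower when libraries were left out. Over all genes, limma on TPM called 1732 higher and 2961 lower and library totals 2216 higher and 3555 lower, and leaving out libraries gave 2116 to 3041 higher and 1702 to 2675 lower. DESeq2 called 2831 of 15690 genes as higher and 2598 as lower, and no filter 2459 of 32996 as higher and 2279 as lower. NPC1 and TMEM97 kept direction and call in all 22 alternatives, and NSDHL and MSMO1 their direction. In 13 genes the sign turned somewhere, never as a call. With library totals GGPS1 was -0.037 and SREBF2 -0.018 (log2). With limma on TPM MVK was -0.026, GGPS1 -0.035, HSD17B7 -0.008, EBP -0.018 and SREBF2 -0.016. The median log2 fold change of all genes was -0.063 with library totals and -0.066 with limma on TPM. It was -0.009 in the fit without a batch term, so all genes shifted down in these 2 settings. In batches 2, 3 and 4 alone IDI1 was 0.013, LSS 0.02 and LBR 0.037. When libraries were left out, ACAT2 ranged from -0.166 to 0.032, MVK from -0.004 to 0.169, PMVK from -0.092 to 0.01, IDI1 from -0.151 to 0.038, GGPS1 from -0.007 to 0.054, LSS from -0.107 to 0.056, TM7SF2 from -0.379 to 0.085, LBR from -0.032 to 0.045, SC5D from -0.078 to 0.02 and STARD4 from -0.144 to 0.098. The causes were not tested. TM7SF2, at 63 to 173 counts, is the gene most limited by depth.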
